A study of Homo sapiens with 8 samples.

Results

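The interaction of cell line and treatment was measured here as the response of MOLT-4 cells to ACBI-1 minus the response of DND-41 cells, gene by gene, where a response is the log2 ratio of ACBI-1 over DMSO. All 8 of the 8 RNA-seq libraries of the series entered it, joined by Ensembl gene identifier. DND-41 and MOLT-4 are established human lines of T-cell acute lymphoblastic leukaemia (T-ALL), a cancer of immature T cells. Each line had 2 libraries of cells given DMSO, the solvent control, and 2 of cells given ACBI-1 at 100 nM, all collected after 3 h. No other agent or genetic change is given in the labels. Whether the 2 replicates of a group were grown as separate cultures is not given in the labels. The p-values below therefore reflect the spread between libraries, and this spread may be technical. In bulk RNA, fewer cells that express a gene and less of its RNA per cell cannot be told apart.

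ACBI-1 is a small molecule with a pair of binding ends. It carries SMARCA2, SMARCA4 and PBRM1 to the VHL ubiquitin ligase, which marks them for destruction by the proteasome. SMARCA2 and SMARCA4 are the alternative motors of the SWI/SNF chromatin remodelling complexes, which slide and evict nucleosomes and keep many enhancers open, and PBRM1 belongs to the PBAF form of these complexes. T-ALL cells commonly depend on Notch signalling, in which a cleaved receptor moves to the nucleus and switches on targets such as HES1, DTX1 and MYC. Many also depend on a transcription factor switched on out of place, such as TLX3 or TAL1. The comparison asked whether the early response to the degrader was the same in a line of each kind. With a single line of each kind, the leukaemic factor and any other difference between the lines cannot be told apart.

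Total counts ranged from 19867779 to 20082524 per library, so that a level of 1 CPM (counts scaled to a library of fixed size) was about 20 reads. Mitochondrially encoded genes took 13.3% to 20.04% of the counts. All 10 T-lineage markers examined, among them CD3E, CD7 and CD1A, had at least 1 CPM in all 8 libraries. The summed level of 9 rows of B-cell marker genes was 1657 to 1871 CPM in DND-41 and 92.8 to 96.7 CPM in MOLT-4, while 15 myeloid and erythroid markers summed to at most 0.6 CPM in any library. Epithelial and fibroblast markers (12 genes) summed to 34.0 to 57.9 CPM in DND-41 and 3.77 to 4.57 CPM in MOLT-4. Of these 12, 9 or 10 had 0 counts in each DND-41 library, so the sum there came from few members. In the MOLT-4 libraries 5 to 9 of them had 0 counts. Of the 9 B-cell rows, 3 or 4 had 0 counts in each library of either line. The leukaemic factor of DND-41, TLX3, had 4611 counts or more in each DND-41 library and 9 or fewer in MOLT-4, and that of MOLT-4, TAL1, had at least 722 counts in each MOLT-4 library and 4 or fewer in DND-41. DND-41 DMSO replicate 2 stood apart from the other DND-41 libraries in reads of genes high in MOLT-4. The comparison used 33 genes of at least 50 CPM in MOLT-4 and under 0.5 CPM in each of the other DND-41 libraries. In DMSO replicate 2 they reached 0.598% of their MOLT-4 level (507 counts). In the other 3 DND-41 libraries they reached 0.0414% to 0.0688% (35 to 58 counts). The choice of genes required low levels in those 3 libraries and set no limit on DMSO replicate 2, so it favoured this order. The source of the reads of these genes in DMSO replicate 2 was not tested. Calls that were lost without this library are given with their value without it. The treated DND-41 replicates differed more from each other than the pairs of the other groups (chi-square per gene 15.6, against 2.99 to 5.10).

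A small set of genes responded differently in DND-41 and MOLT-4. Of 15604 genes tested, 100 had a called interaction, 0.641% of those tested (edgeR quasi-likelihood test, Benjamini-Hochberg adjusted p under 0.05). The response of MOLT-4 was the lower in 69 of them (0.442%) and the higher in 31 (0.199%). At an unadjusted p under 0.05 there were 1192. In the same fit, 1378 genes changed in DND-41 (8.83%), of which 438 rose (2.81%) and 940 fell (6.02%), and 1397 changed in MOLT-4 (8.95%), of which 540 rose (3.46%) and 857 fell (5.49%). The lines shared 622 of these genes, 184 of which rose in both, 420 fell in both and 18 moved in opposite directions. Of the 756 genes called in DND-41 alone, 22 (2.91%) had a called interaction, as had 46 (5.94%) of the 775 called in MOLT-4 alone. For the remainder of those genes the difference between lines was tested and not called.

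The precision of the interaction was set by 2 libraries per group. Over 9309 genes with a mean of at least 5 CPM in each line, the median standard error (SE) of the interaction was 0.12 on the log2 scale. Across these genes the responses of the lines had a Pearson r of 0.643 and a Spearman rho of 0.587, a description across genes, which are not independent replicates. The 4 ACBI-1 over DMSO ratios of 1 line lay wholly above the 4 of the other in 98 of the 100 called genes and in 22.2% of all genes tested. The genes were called on the same libraries, so this overlap count is no separate support for the calls. The 4 ratios of a line come from 2 treated and 2 control libraries and are not independent. The count depended strongly on single libraries: leaving out 1 library lowered it in some fits and raised it in others. The balance of lower and higher responses in MOLT-4 also shifted with the library left out. With no filter on low counts 13 were called, all among the 100.

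**Figure D1:**
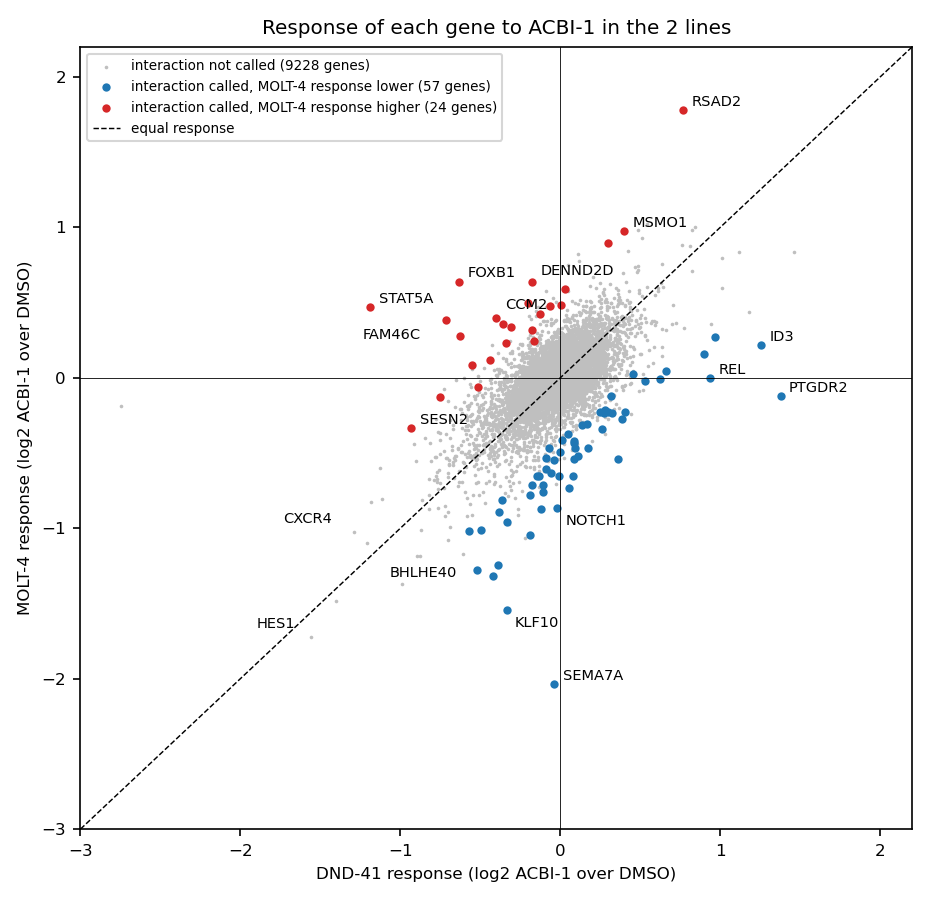
Response to ACBI-1 in DND-41 (x axis) and MOLT-4 (y axis), log2 of ACBI-1 over DMSO, for 9309 genes with at least 5 CPM in each line. Blue and red points are genes with a called interaction and grey points are the others. HES1 lies far down near the dashed line of equal response, and CXCR4 lies above that line without a called interaction. NOTCH1, SEMA7A and KLF10 lie below the line and STAT5A, FOXB1 and CCM2 above it.

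By direction, the largest group of the 100 was made of genes that fell in MOLT-4 and were not called in DND-41 (36 genes). Another 15 rose in DND-41 alone, 10 rose in MOLT-4 alone and 7 fell in DND-41 alone. In 11 genes both lines fell by unequal amounts, with the deeper fall in MOLT-4 in 10 of them, and in 3 genes both lines rose. The lines moved in opposite directions in 18 genes, 10 of which fell in DND-41 and rose in MOLT-4. No called interaction came from a gene that was called in neither line. The difference was at least 2-fold in 24 genes.

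Within the Notch pathway the receptor itself responded differently. NOTCH1 (ENSG00000148400) had 908 and 944 CPM in the DND-41 DMSO libraries and 832 and 998 CPM with ACBI-1, and in MOLT-4 it had 832 and 825 CPM with DMSO and 460 and 449 CPM with ACBI-1. The DND-41 values overlapped between treatments, while both treated MOLT-4 libraries lay far below their controls. The response was -0.02 ± 0.08 (log2 ± SE) in DND-41 and -0.87 ± 0.08 in MOLT-4, a difference of -0.85 ± 0.11 (edgeR adjusted p = 4.86e-05) that was called with any single library left out. DTX1 (ENSG00000135144), a Notch target that encodes a regulator of the receptor, fell in both lines and further in MOLT-4. Its DMSO libraries had 1319 and 1445 CPM in DND-41 and 25.7 and 33.6 CPM in MOLT-4, and its ACBI-1 libraries 962 and 1102 CPM and 11.3 and 12.4 CPM. The difference for DTX1 was -0.90 ± 0.15 (edgeR adjusted p = 0.00153).

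HES1, the classic Notch-induced repressor, fell in both lines, and no difference was called. It went from 69.2 and 66.8 CPM to 20.9 and 25.3 CPM in DND-41 and from 54.1 and 55.8 CPM to 17.2 and 16.1 CPM in MOLT-4. The difference was -0.16 with a 95% interval of -0.42 to 0.09 (edgeR adjusted p = 0.856), so that a MOLT-4 fall deeper by up to 0.42 was within the error. MYC, a Notch target in T-ALL and a driver of growth, differed by 0.08 (interval -0.15 to 0.31). Without DND-41 ACBI-1 replicate 1 or 2 these differences became -0.29 and -0.02 for HES1 and -0.05 and 0.23 for MYC. In the list of Notch receptors and targets, 3 of 20 tested members had a lower response in MOLT-4 (NOTCH1, DTX1 and IGF1R) and 1 a higher one (RHOU), beside 0.442% and 0.199% of all genes tested. The median difference of the list was -0.12, or -0.04 over the 18 members with counts in every group, against 0.03 over all genes tested. NOTCH2, another receptor gene of the family, fell by 0.36 in DND-41 and by 0.37 in MOLT-4, and the ligand gene DLL1 was at -0.85 in DND-41, not called, and fell by 1.63 in MOLT-4, with no called interaction. The calls for IGF1R, a growth factor receptor gene (-0.42 ± 0.10, edgeR adjusted p = 0.0382), and RHOU (0.97 ± 0.21), were less firm. IGF1R was called in 2 of the 8 fits that left out a library, with values from -0.52 to -0.36 over those fits and -0.44 without DND-41 DMSO replicate 2 (edgeR adjusted p = 0.121).

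**Figure D2:**
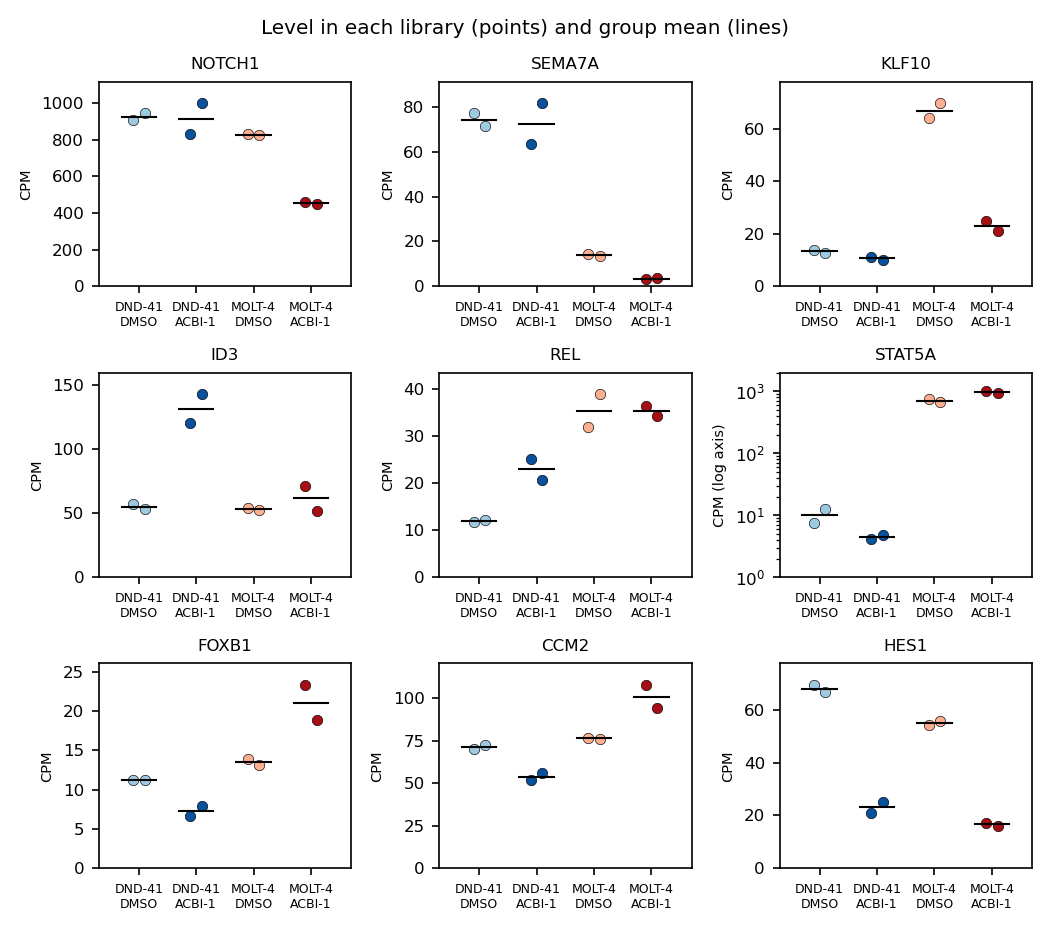
Level of 9 genes in each library, in CPM, as points by line and treatment, with lines at the group means; the axis for STAT5A is logarithmic. NOTCH1 and SEMA7A drop in the treated MOLT-4 libraries and not in DND-41, ID3 and REL rise in DND-41, FOXB1 and CCM2 move in opposite directions, and HES1 drops in both lines.

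Most of the 100 genes belonged to the side on which MOLT-4 had the lower response, and the deepest difference among genes well measured in both lines was in SEMA7A. SEMA7A (ENSG00000138623) encodes a membrane-anchored semaphorin that signals between immune cells. It stood at 77.2 and 71.6 CPM with DMSO and 63.4 and 81.6 CPM with ACBI-1 in DND-41, and at 14.2 and 13.5 CPM and then 3.13 and 3.65 CPM in MOLT-4. The treatments overlapped in DND-41 and were fully apart in MOLT-4. The response was -0.04 ± 0.09 in DND-41 and -2.03 ± 0.16 in MOLT-4, a difference of -2.00 ± 0.18 (edgeR adjusted p = 2.16e-07). KLF10 (ENSG00000155090), a zinc finger repressor induced by TGF-beta, had 13.9 and 12.8 CPM with DMSO and 11.3 and 9.93 CPM with ACBI-1 in DND-41. In MOLT-4 KLF10 had 64.3 and 69.7 CPM with DMSO and 24.9 and 21.1 CPM with ACBI-1. The DND-41 libraries were lower with ACBI-1 without reaching the threshold (-0.34 ± 0.12, edgeR adjusted p = 0.0706), MOLT-4 fell by 1.54, and the difference was -1.21 ± 0.15 (edgeR adjusted p = 3.62e-05). The calls for SEMA7A and KLF10 held with any single library left out.

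DDIT4, LTB, SKIL, PIM1 and IFFO2 were further genes that fell in MOLT-4 and were not called in DND-41. DDIT4, an inhibitor of the mTOR growth pathway, went from 17.8 and 19.4 CPM to 8.57 and 9.41 CPM in MOLT-4, and had 20.6 and 22.1 CPM with DMSO and 16.6 and 20.7 CPM with ACBI-1 in DND-41. Its DND-41 groups overlapped, and the difference was -0.86 ± 0.16 (edgeR adjusted p = 0.00565). LTB, which encodes the lymphotoxin beta ligand of the TNF superfamily, fell from 9.23 and 11.3 CPM to 5.85 and 6.48 CPM in MOLT-4. In DND-41 LTB had 126 and 130 CPM with DMSO and 124 and 142 CPM with ACBI-1, and the difference was -0.79 ± 0.15 (edgeR adjusted p = 0.0072). SKIL, a repressor of SMAD signalling (-1.03 ± 0.22), PIM1, a survival kinase gene induced by STAT factors (-0.58 ± 0.12), and IFFO2, a gene of the intermediate filament family (-0.90 ± 0.20), were called as well. Leaving out single MOLT-4 libraries ended several of these calls. Without MOLT-4 ACBI-1 replicate 1 the edgeR adjusted p was 0.061 for DDIT4 (-0.83), 0.096 for LTB (-0.75), 0.117 for SKIL (-1.04), 0.209 for PIM1 (-0.48) and 0.125 for IFFO2 (-0.92). LTB also lost its call without MOLT-4 DMSO replicate 2 (-0.67, edgeR adjusted p = 0.103) and PIM1 without DND-41 DMSO replicate 2 (-0.57, edgeR adjusted p = 0.0666), and SKIL was called in 4 and IFFO2 in 3 of the 8 fits that left out a library. Without DND-41 DMSO replicate 2 SKIL was at -0.98 (edgeR adjusted p = 0.0666) and IFFO2 at -0.82 (edgeR adjusted p = 0.169).

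Some regulators of T-cell development fell in MOLT-4 and were not called in DND-41. GATA3, a zinc finger factor of early T-cell commitment, had 257 and 255 CPM with DMSO and 196 and 173 CPM with ACBI-1 in MOLT-4. In DND-41 GATA3 had 214 and 203 CPM with DMSO and 194 and 203 CPM with ACBI-1, where the groups met at 203 CPM. SATB1, a chromatin organiser of thymocytes, fell from 194 and 190 CPM to 138 and 128 CPM in MOLT-4 and lay between 94.6 and 102 CPM in all 4 DND-41 libraries. RUNX2, a Runt-domain factor of thymocyte precursors, fell from 26.4 and 32.7 CPM to 19.5 and 21.1 CPM in MOLT-4 and lay between 28.8 and 31.9 CPM in DND-41. The differences were -0.40 ± 0.09 for GATA3, -0.44 ± 0.09 for SATB1 and -0.63 ± 0.13 for RUNX2 (edgeR adjusted p = 0.0423, 0.0112 and 0.0182). These 3 genes were the only members with a called interaction among 20 tested T-lineage regulators, beside 0.442% of all genes tested with the lower response in MOLT-4, and the median difference of the list was -0.08. In MOLT-4 6 members of the list fell and 4 rose, and in DND-41 3 fell and 2 rose. BCL11B, another factor of T-cell commitment, fell by 0.37 in MOLT-4 and stood at -0.21 ± 0.07 in DND-41, with a difference of -0.16 (interval -0.36 to 0.04) that was not called. GATA3 was called in 2 of the 8 fits that left out a library and not with scaling by total counts (edgeR adjusted p = 0.0621). Without DND-41 DMSO replicate 2 GATA3 was at -0.36 (edgeR adjusted p = 0.31) and SATB1 at -0.43 (edgeR adjusted p = 0.104), and without MOLT-4 ACBI-1 replicate 2 SATB1 was at -0.41 (edgeR adjusted p = 0.112). RUNX2 lost its call without 4 of the libraries, with -0.49 at the nearest to 0, without MOLT-4 DMSO replicate 2 (edgeR adjusted p = 0.166).

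A further group fell in both lines and further in MOLT-4. BHLHE40, a repressor that responds to hypoxia and to T-cell activation, had 63.1 and 59.2 CPM with DMSO and 40.1 and 45.2 CPM with ACBI-1 in DND-41. In MOLT-4 BHLHE40 had 19.4 and 20.2 CPM with DMSO and 7.72 and 8.58 CPM with ACBI-1, so the groups were apart in each line. It fell by 0.52 in DND-41 and by 1.28 in MOLT-4, a difference of -0.76 ± 0.14 (edgeR adjusted p = 0.00362). BCOR, a partner of BCL6 and a subunit of a variant Polycomb complex, fell from 186 and 179 CPM to 120 and 127 CPM in DND-41 and from 166 and 162 CPM to 80.0 and 81.9 CPM in MOLT-4. The difference for BCOR was -0.45 ± 0.09 (edgeR adjusted p = 0.0101). ZNF696, a zinc finger gene, fell by 0.39 in DND-41 and by 1.24 in MOLT-4 (difference -0.85 ± 0.17, edgeR adjusted p = 0.00999). Without MOLT-4 ACBI-1 replicate 1 BHLHE40 was at -0.72 (edgeR adjusted p = 0.0578) and BCOR at -0.47 (edgeR adjusted p = 0.0606). BCOR was at -0.42 without DND-41 DMSO replicate 2 (edgeR adjusted p = 0.102), and ZNF696 at -0.77 and -0.83 without MOLT-4 DMSO replicate 2 and MOLT-4 ACBI-1 replicate 2 (edgeR adjusted p = 0.0747 and 0.111).

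Genes that rose in DND-41 alone made up the other part of the negative side. ID3 (ENSG00000117318), which blocks the DNA binding of E proteins and restrains T-cell precursors, had 56.8 and 53.1 CPM with DMSO and 120 and 142 CPM with ACBI-1 in DND-41. In MOLT-4 ID3 had 53.7 and 52.2 CPM with DMSO and 71.1 and 51.9 CPM with ACBI-1. The lines began at like levels; the treated DND-41 libraries lay above all others, and in MOLT-4 the groups overlapped. The difference was -1.04 ± 0.14 (edgeR adjusted p = 8.14e-05). PTGDR2, a prostaglandin D2 receptor gene, rose in DND-41 from 8.53 and 8.05 CPM to 19.3 and 23.8 CPM and stayed between 4.59 and 5.64 CPM in MOLT-4 (difference -1.501 ± 0.21, edgeR adjusted p = 0.000134). REL, an NF-kB subunit gene, rose from 11.8 and 12.2 CPM to 25.2 and 20.8 CPM in DND-41. In MOLT-4 REL was higher from the start and overlapped, with 32.0 and 38.9 CPM with DMSO and 36.4 and 34.3 CPM with ACBI-1 (difference -0.94 ± 0.15, edgeR adjusted p = 0.000893).

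BTG1, an anti-proliferative gene tied to mRNA decay, rose from 65.2 and 62.5 CPM to 97.2 and 99.2 CPM in DND-41 and lay between 35.2 and 36.3 CPM in all 4 MOLT-4 libraries (difference -0.63 ± 0.10, edgeR adjusted p = 0.00091). GIMAP5, a GTPase gene of lymphocyte survival, rose from 125 and 141 CPM to 208 and 213 CPM in DND-41 and overlapped in MOLT-4 (difference -0.62 ± 0.10). Reads of GIMAP5 may be shared with a neighbouring family member through a readthrough transcript. The calls for ID3, PTGDR2, REL, BTG1 and GIMAP5 held with any single library left out. TNFAIP3, the A20 inhibitor of NF-kB, rose in DND-41 by 0.30 and stood at -0.23 ± 0.07 in MOLT-4, not called (difference -0.53 ± 0.10, edgeR adjusted p = 0.00881). MTF2, a Polycomb-like gene, rose in DND-41 by 0.25 and stood at -0.23 in MOLT-4, not called (difference -0.48 ± 0.10, edgeR adjusted p = 0.0206). GADD45B, a stress sensor gene, rose in DND-41 from 56.6 and 62.5 CPM to 109 and 125 CPM and was at 6.65 and 5.69 CPM with DMSO and 6.66 and 8.22 CPM with ACBI-1 in MOLT-4. Its difference of -0.70 ± 0.17 was near the threshold (edgeR adjusted p = 0.0488). GADD45B was called in 2 of the 8 fits that left out a library (0.365 without MOLT-4 ACBI-1 replicate 1, at -0.59), MTF2 in 3 (0.166 without that library, at -0.43, and 0.102 without DND-41 DMSO replicate 2, at -0.47) and TNFAIP3 in 6 (0.077 without it, at -0.51, and 0.0633 without DND-41 DMSO replicate 2, also at -0.51; all edgeR adjusted p).

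Several genes moved in opposite directions. CCM2 (ENSG00000136280), a scaffold of a kinase signalling complex, fell in DND-41 from 70.1 and 72.4 CPM to 52.1 and 56.0 CPM. In MOLT-4 CCM2 rose from 76.8 and 76.4 CPM to 108 and 94.6 CPM, so the lines started close together and ended apart. The responses were -0.40 ± 0.07 and 0.40 ± 0.07, a difference of 0.80 ± 0.10 (edgeR adjusted p = 4.86e-05). FOXB1, a forkhead factor gene, fell from 11.3 and 11.2 CPM to 6.63 and 7.91 CPM in DND-41 and rose from 13.9 and 13.2 CPM to 23.2 and 18.9 CPM in MOLT-4 (difference 1.27 ± 0.17, edgeR adjusted p = 0.000117). FAM46C, a poly(A) polymerase gene of lymphoid cells, fell from 49.1 and 49.0 CPM to 30.6 and 29.2 CPM in DND-41. It rose from 7.68 and 8.43 CPM to 10.1 and 10.9 CPM in MOLT-4 (difference 1.10 ± 0.14, edgeR adjusted p = 4.89e-05). The groups of CCM2, FOXB1 and FAM46C were apart in both lines, and their calls held with any single library left out.

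CD84, an adhesion receptor gene of the SLAM family, fell from 7.34 and 7.45 CPM to 5.11 and 4.48 CPM in DND-41 and rose from 103 and 93.7 CPM to 122 and 116 CPM in MOLT-4. Its difference was 0.90 ± 0.15 (edgeR adjusted p = 0.00157), and 0.89 without DND-41 DMSO replicate 2. Smaller opposite movements were seen in ARID3A, a DNA-binding factor of lymphoid cells (0.65 ± 0.12), and ZFYVE21, a gene of cell adhesion turnover (0.72 ± 0.16). S1PR1, the receptor that draws T cells out of lymphoid organs, fell from 3.597 and 2.93 CPM to 2.16 and 1.98 CPM in DND-41 and rose from 37.9 and 37.1 CPM to 47.0 and 52.9 CPM in MOLT-4 (difference 1.07 ± 0.22, edgeR adjusted p = 0.0105). PLK2, a polo-like kinase gene of the p53 response, had 23 and 18 counts with DMSO and 78 and 90 with ACBI-1 in DND-41, and 19 and 11 and then 4 and 6 counts in MOLT-4. The fitted difference for PLK2 was -3.58 ± 0.57 (edgeR adjusted p = 0.000933) and rests on these low counts. Leaving out single libraries ended the calls of ARID3A (0.56 without MOLT-4 ACBI-1 replicate 1, adjusted p = 0.115; 0.57 without MOLT-4 DMSO replicate 2, adjusted p = 0.0891), ZFYVE21 (called in 3 of 8 fits, 0.56 at the lowest without DND-41 ACBI-1 replicate 1; 0.64 without DND-41 DMSO replicate 2, adjusted p = 0.164) and S1PR1 (called in 5 of 8, 0.92 at the lowest without DND-41 DMSO replicate 1), all by edgeR.

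Among genes with the higher response in MOLT-4, 4 examples rose there and were not called in DND-41. DENND2D, a gene of vesicle traffic, rose from 96.4 and 80.5 CPM to 140 and 135 CPM in MOLT-4, while in DND-41 it had 212 and 209 CPM with DMSO and 188 and 184 CPM with ACBI-1. Its difference was 0.82 ± 0.10 (edgeR adjusted p = 3.62e-05) and was called with any single library left out. NMT2, a protein myristoylation enzyme gene, rose by 0.50 in MOLT-4 (difference 0.70 ± 0.14, edgeR adjusted p = 0.00813), and HERPUD1, a gene of the unfolded protein response, rose by 0.43 (difference 0.55 ± 0.12, edgeR adjusted p = 0.022). The fourth, RHOU, rose by 0.43 in MOLT-4 and is taken up again with the DND-41 library that stood apart. NMT2 was called in 5 of the 8 fits that left out a library (0.58 without DND-41 DMSO replicate 1, adjusted p = 0.086) and HERPUD1 in 3 (0.42 without MOLT-4 ACBI-1 replicate 1, adjusted p = 0.365), both by edgeR.

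RSAD2 and MSMO1 rose in both lines and further in MOLT-4. RSAD2, an antiviral gene induced by interferon, went from 7.69 and 9.64 CPM to 15.4 and 14.1 CPM in DND-41 and from 6.03 and 6.51 CPM to 23.8 and 19.3 CPM in MOLT-4. Its difference was 1.01 ± 0.19 (edgeR adjusted p = 0.00566). MSMO1, an enzyme of sterol synthesis, went from 48.8 and 45.7 CPM to 65.2 and 59.4 CPM in DND-41 and from 30.0 and 26.8 CPM to 53.3 and 58.7 CPM in MOLT-4 (difference 0.58 ± 0.11, edgeR adjusted p = 0.00865). For both genes the treated libraries lay above the controls in each line. Falls in DND-41 alone included TGFBR2, a TGF-beta receptor gene, which went from 29.4 and 29.8 CPM to 21.4 and 19.0 CPM and stayed between 31.0 and 34.8 CPM in MOLT-4 (difference 0.64 ± 0.12, edgeR adjusted p = 0.0072). ORAI2, a subunit gene of calcium entry channels, fell by 0.75 in DND-41 and stood at -0.13 ± 0.07 in MOLT-4 (difference 0.63 ± 0.12, edgeR adjusted p = 0.00671). SESN2, a stress-induced inhibitor of mTOR, fell in both lines and less in MOLT-4 (0.60 ± 0.13, edgeR adjusted p = 0.0182). Without MOLT-4 ACBI-1 replicate 1 the difference was 0.82 for RSAD2 (adjusted p = 0.0929), 0.51 for ORAI2 (0.095) and 0.55 for SESN2 (0.2). Without MOLT-4 ACBI-1 replicate 2 it was 0.48 for MSMO1 (0.189), 0.56 for TGFBR2 (0.124) and 0.58 for SESN2 (0.19), and without DND-41 DMSO replicate 2 it was 0.84 for RSAD2 (0.0892), 0.57 for ORAI2 (0.0782) and 0.60 for SESN2 (0.0548), all edgeR adjusted p. Without MOLT-4 DMSO replicate 2 it was 0.47 for MSMO1 (0.148) and 0.58 for TGFBR2 (0.0732), and SESN2 was called in 3 of the 8 such fits.

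**Figure D3:**
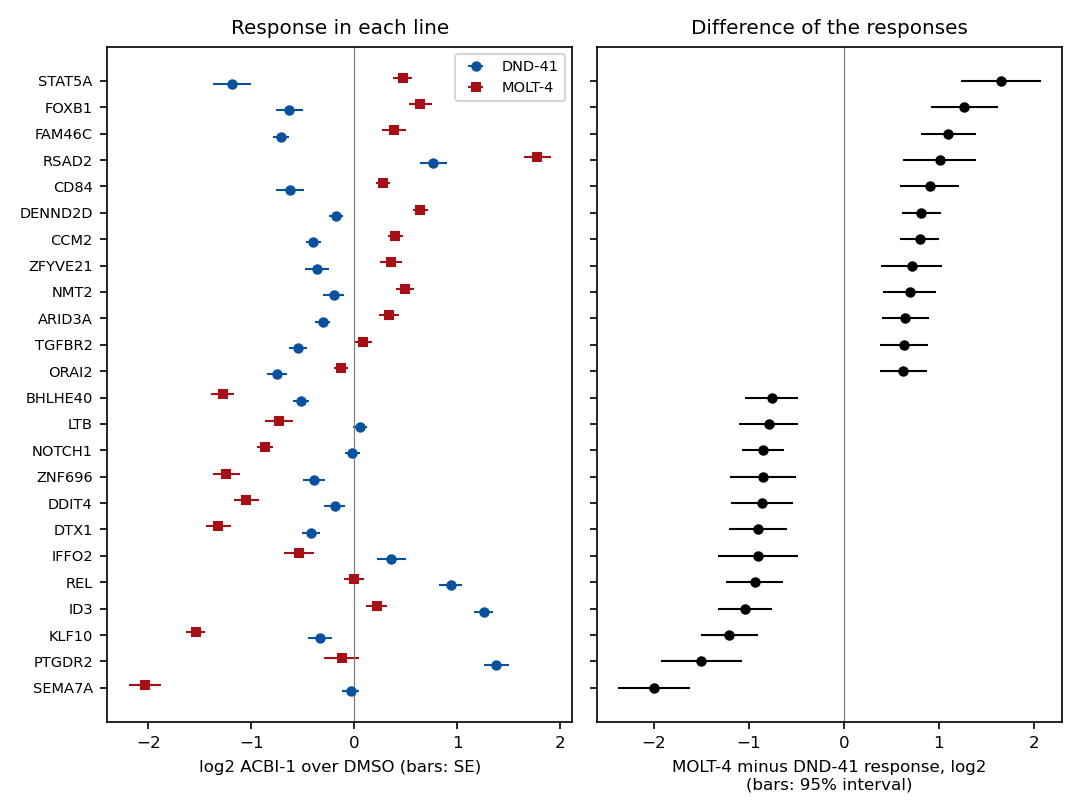
Left: response in DND-41 (blue) and MOLT-4 (red), log2 of ACBI-1 over DMSO with SE bars, for the 12 genes with the largest difference in each direction among those with at least 5 CPM in each line. Right: MOLT-4 response minus DND-41 response with 95% intervals, from -2.00 for SEMA7A to 1.66 for STAT5A. The STAT5A value was 1.25 without DND-41 DMSO replicate 2.

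Of the 100 called genes, 8 had a level in MOLT-4 at least 10 times that in DND-41, and the interaction was positive in all 8. Another 8 had a level in DND-41 at least 10 times that in MOLT-4, with a negative interaction in all 8. Of the 15604 genes tested, 13972 remained once genes at least 10 times higher in either line were removed. The signs over all the removed genes were not counted, so these splits have no background beside them. Among the genes higher in MOLT-4, the difference shrank without DND-41 DMSO replicate 2 in STAT5A, RHOU, TRBV20-1, ITM2A and ALDH1A2. It changed little or grew in the others. Without that library it was 0.89 for CD84, 1.21 for S1PR1 and 6.40 for CCR4, against 0.90, 1.07 and 6.53 with all libraries. STAT5A (ENSG00000126561), a transducer of cytokine signals whose close copy STAT5B may share reads, had 7.64 and 12.7 CPM with DMSO and 4.17 and 4.72 CPM with ACBI-1 in DND-41, and 753 and 661 CPM with DMSO and 1021 and 938 CPM with ACBI-1 in MOLT-4. It fell in DND-41 by 1.19, rose in MOLT-4 by 0.47, and differed by 1.66 ± 0.20 (edgeR adjusted p = 3.62e-05). The difference was 1.25 without DND-41 DMSO replicate 2 (edgeR adjusted p = 0.001) and 1.26 after the estimated share of the MOLT-4 level was subtracted from it. RHOU had 3.11 and 4.87 CPM with DMSO and 2.31 and 3.18 CPM with ACBI-1 in DND-41, and its difference of 0.97 became 0.61 without that library (edgeR adjusted p = 0.684) and 0.70 after subtraction (edgeR adjusted p = 0.125).

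The change without DND-41 DMSO replicate 2 was largest in TRBV20-1, ITM2A and ALDH1A2, which were nearly restricted to MOLT-4. TRBV20-1, a T-cell receptor segment with related copies, singled out after its values were seen, had 3 and 101 counts in the DND-41 DMSO libraries and 3 and 4 with ACBI-1, against 16229 to 18835 in MOLT-4. ITM2A, a membrane protein gene of thymocytes, had 2 and 56 counts with DMSO and 2 and 2 with ACBI-1, and ALDH1A2, an enzyme of retinoic acid synthesis, had 4 and 33 and then 4 and 0. The high value lay in DND-41 DMSO replicate 2 for each gene. The fitted differences were 3.92 for TRBV20-1, 3.94 for ITM2A and 3.33 for ALDH1A2 (edgeR adjusted p = 0.0318, 0.0423 and 0.0423). Without that library they were -0.15, 0.16 and 1.15, none of them called. CCR4, a chemokine receptor gene of T cells, had 6 and 7 counts with DMSO and 0 and 0 with ACBI-1 in DND-41, and 112 and 105 and then 195 and 193 counts in MOLT-4. With 3 counts per library taken as the upper limit of a count of 0, the observed DMSO mean of CCR4 in DND-41 was 2.21 times that limit. The counting error of the 6 and 7 counts was left out, so 2.21 is not a lower limit of the fall. In MOLT-4 CCR4 rose by 0.82 (log2). Its interaction was called (edgeR adjusted p = 0.0072, and 0.042 without DND-41 DMSO replicate 2), with a fitted value of 6.53 that depends on the zero counts and is no bound.

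**Figure D4:**
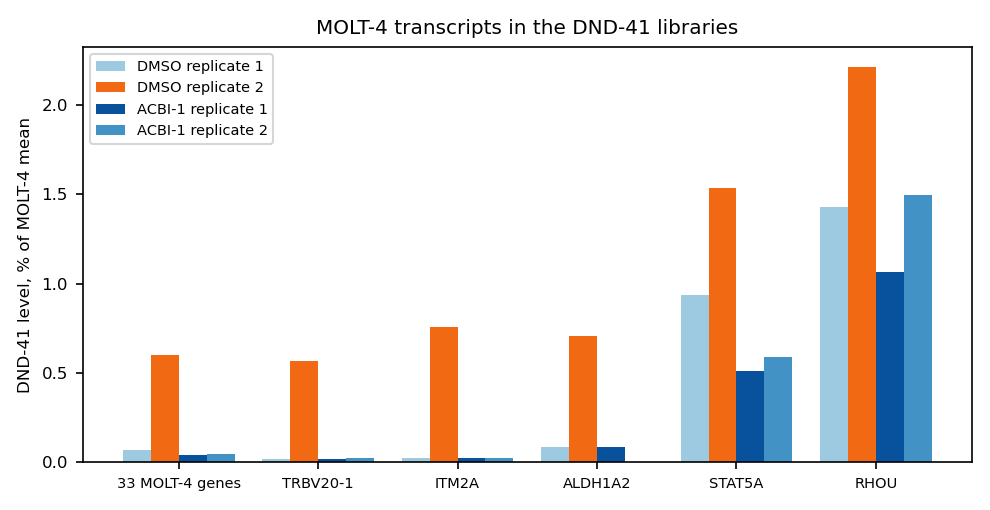
Level in each DND-41 library as a percent of the MOLT-4 mean, for the sum of 33 genes restricted to MOLT-4 and for 5 called genes. DMSO replicate 2 (orange) stands above the other 3 libraries in each set, with the largest ratio for TRBV20-1 and ITM2A and smaller ratios for STAT5A and RHOU. The 33 genes were chosen to be low in the other 3 libraries, with no limit on DMSO replicate 2.

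Strong falls without a called difference were found as well. Of the genes with at least 5 CPM and a called change of at least 1 (log2) in the same direction in each line, 5 had no called interaction, and all 5 fell: HES1, CXCR4, TAGAP, C16orf54 and ZBTB42. CXCR4, the receptor that holds T-ALL cells in the marrow, went from 214 and 217 CPM to 86.4 and 90.0 CPM in DND-41 and from 378 and 373 CPM to 174 and 196 CPM in MOLT-4. Its difference was 0.27 with an interval of 0.07 to 0.46 (edgeR adjusted p = 0.338), which does not show equal falls. TAGAP, a gene of T-cell activation, differed by -0.08 (interval -0.54 to 0.39), C16orf54 by 0.11 (-0.20 to 0.43) and ZBTB42 by -0.27 (-0.70 to 0.17). These intervals are wide against the size of most called differences.

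No difference was called for the transcripts of the degraded proteins and of the ligase. The difference was 0.09 (interval -0.15 to 0.33) for SMARCA2, 0.02 (-0.19 to 0.22) for SMARCA4, -0.16 (-0.34 to 0.02) for PBRM1 and 0.01 (-0.19 to 0.22) for VHL, and protein was not measured. Of 16 tested members of the BCL2 family 0 had a called interaction, which is near the background of 0.641%. MCL1, a survival gene of that family, fell by 0.44 in DND-41 and by 0.49 in MOLT-4 (difference -0.05, interval -0.26 to 0.16), and BCL2L11, which encodes the death activator BIM, rose by 0.50 and by 0.42 (difference -0.09, interval -0.32 to 0.14). Among leukaemic regulators, MYB differed by 0.02 (interval -0.18 to 0.22) and RUNX1 by 0.07 (-0.13 to 0.27). CHD4, the motor of the NuRD remodelling complex, fell by 0.60 in DND-41 and by 0.63 in MOLT-4 (difference -0.03, interval -0.21 to 0.16). PDCD1, the gene of the inhibitory receptor PD-1, fell in MOLT-4 from 15.2 and 19.2 CPM to 4.54 and 4.99 CPM, but lay at or under 0.1 CPM in DND-41, and its difference could not be estimated with useful precision (-1.83 ± 1.60). CDKN1A, the p21 cell-cycle inhibitor gene, fell by 0.71 in DND-41 and was at -0.22 ± 0.24 in MOLT-4, with a difference of 0.49 (interval -0.07 to 1.05) that was not called.

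Across 41 gene lists, called members were few and were spread over many lists. Immediate early genes had 3 of 44 members with the lower response in MOLT-4 (KLF10, BHLHE40 and BTG1) and 0 with the higher, and NF-kB subunits and targets had 3 of 20 (REL, LTB and TNFAIP3) and 0. TGF-beta and BMP pathway genes had 2 of 25 lower (ID3 and SKIL) and 1 higher (TGFBR2), p53 targets 2 of 27 lower (PLK2 and GADD45B) and 1 higher (SESN2), hypoxia targets 2 of 34 lower (BHLHE40 and DDIT4) and Polycomb genes 2 of 31 lower (BCOR and MTF2). Leukocyte G-protein-coupled receptors had 1 of 20 lower (PTGDR2) and 2 higher (CCR4 and S1PR1). TAL1-regulated genes had 2 of 21 higher (STAT5A and ALDH1A2), genes of the response to unfolded protein and amino acid shortage 2 of 27 higher (SESN2 and HERPUD1), and both had 0 lower. The corresponding shares over all genes tested were 0.442% lower and 0.199% higher. The lists were chosen with results of these data known, so their counts are a description and support no statement about the lists.

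The medians of the lists were mostly near that of all genes (0.03). The median difference was lowest in the TNF superfamily (-0.32 over 24 members, -0.29 over the 21 with counts in every group), where the median response was -0.25 in DND-41 and -0.62 in MOLT-4. Falls were called in 9 of its members in each line, beside 6.02% of all genes tested in DND-41 and 5.49% in MOLT-4, and LTB alone had a called interaction; FAS, the death receptor gene, fell by 0.55 and by 0.91. KLF factors had a median difference of -0.21 (10 members), with KLF10 alone called. Cholesterol synthesis genes had a median of 0.13 (25 members): 11 rose in DND-41 and 18 in MOLT-4 (2.81% and 3.46% of all genes tested), none fell, and MSMO1 alone had a called interaction. Mitochondrially encoded genes had a median of -0.19 over 13 members with 0 called, beside the spread in the share of mitochondrial counts between libraries, whose part in it was not tested. Cytosolic ribosomal proteins (0.04, 0 of 45 called), DNA replication genes (0.07, 0 of 33) and MYC network and ribosome biogenesis genes (0.01, 0 of 40) had no called member.

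**Figure D5:**
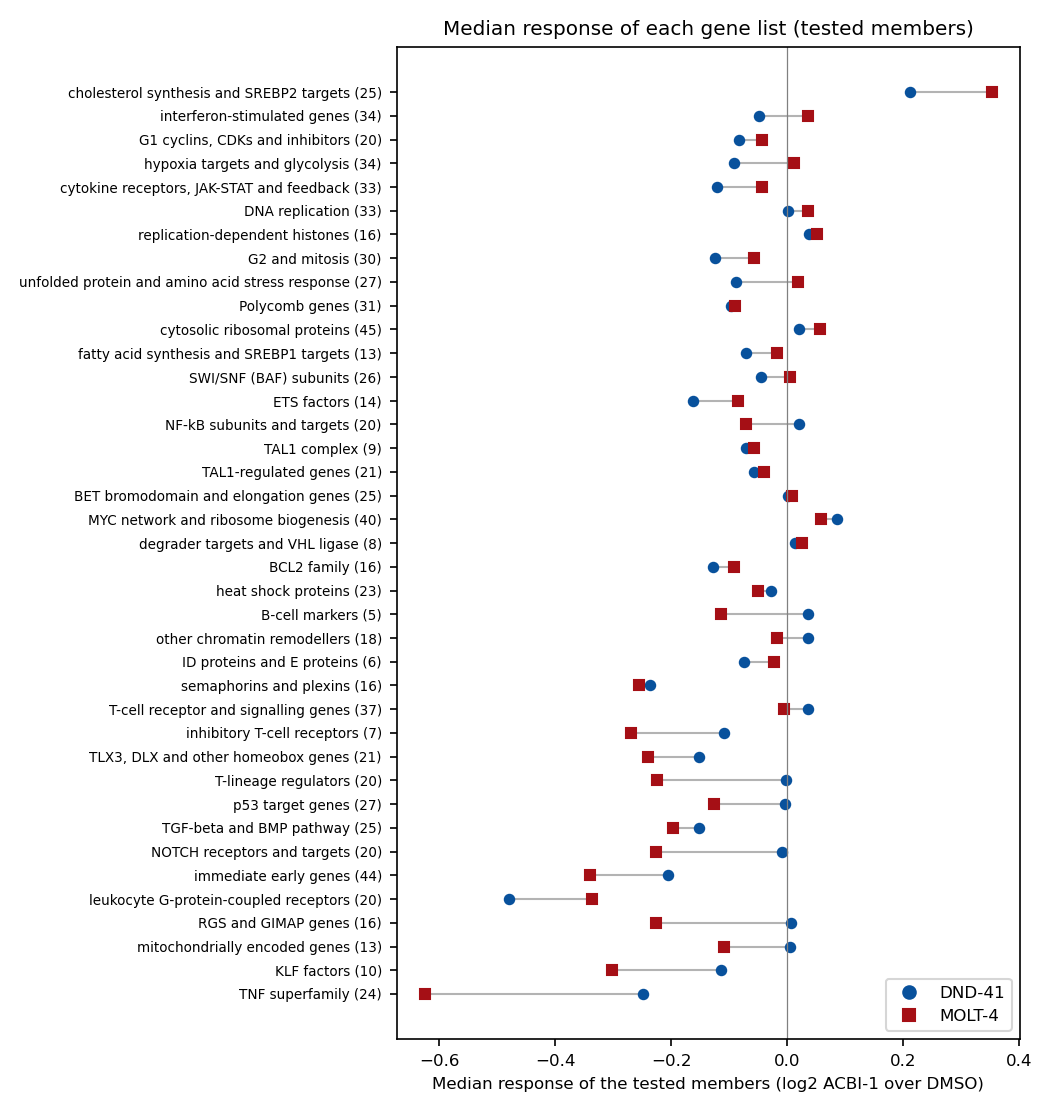
Median response of the tested members of each gene list with at least 5 of them, in DND-41 (blue circles) and MOLT-4 (red squares), log2 of ACBI-1 over DMSO, with the number of tested members in brackets. Among the lists drawn, the markers are farthest apart for the TNF superfamily (-0.25 and -0.62).

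The promoters of the called genes were read from RefSeq (GRCh38.p14), over the 250 bases before each annotated start, which matched 49 of the 69 genes with the lower response in MOLT-4, 22 of the 31 with the higher and 9689 of the 15604 tested. A gene was counted if any of its starts held a motif on either strand. CACGTG, the E-box bound by MYC and its relatives and by BHLHE40, occurred in 12 of the 49 (24.5%), in 2 of the 22 (9.1%) and in 11.4% of the tested genes. The wider E-box CANNTG, which includes CACGTG, occurred in 63.3%, 59.1% and 61.3%. TGGGAA, the core of the site of the Notch partner RBPJ, occurred in 26.5%, 22.7% and 25.2%. The AP-1 site TGANTCA was present in 6.1%, 0 of 22 genes and 6.0%, and the CREB site TGACGTCA in 6.1%, 0 of 22 and 3.4%. The mean number of starts per gene was 1.57, 1.36 and 1.46 and the median GC content 66.6%, 65.3% and 64.4%. A match is a description of these letters, and no test was made.

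The 4 promoters with CACGTG that belong to the genes described above with the lower response in MOLT-4 and the largest differences are shown, 5′ to 3′ on the strand of the gene, with CACGTG in capitals. They are BHLHE40 (chr3:4979187-4979436, plus strand), GADD45B (chr19:2475877-2476126, plus strand), TNFAIP3 (chr6:137867009-137867258, plus strand) and BCOR (chrX:40177278-40177527, minus strand, 1 of its 2 starts).
BHLHE40: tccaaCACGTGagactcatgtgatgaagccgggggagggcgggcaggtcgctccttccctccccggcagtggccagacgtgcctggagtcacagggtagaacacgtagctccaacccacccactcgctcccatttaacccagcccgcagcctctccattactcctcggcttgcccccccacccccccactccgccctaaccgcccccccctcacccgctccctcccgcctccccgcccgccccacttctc
GADD45B: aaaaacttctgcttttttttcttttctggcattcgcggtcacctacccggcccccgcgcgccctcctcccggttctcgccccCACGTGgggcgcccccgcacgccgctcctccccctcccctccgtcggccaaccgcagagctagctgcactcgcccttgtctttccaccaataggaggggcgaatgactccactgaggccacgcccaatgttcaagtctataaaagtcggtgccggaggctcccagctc
TNFAIP3: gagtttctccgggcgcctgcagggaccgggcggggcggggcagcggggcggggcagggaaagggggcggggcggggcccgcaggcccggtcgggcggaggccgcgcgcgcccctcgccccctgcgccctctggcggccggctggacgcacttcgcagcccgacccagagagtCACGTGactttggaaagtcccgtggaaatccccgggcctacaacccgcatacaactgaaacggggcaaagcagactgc
BCOR: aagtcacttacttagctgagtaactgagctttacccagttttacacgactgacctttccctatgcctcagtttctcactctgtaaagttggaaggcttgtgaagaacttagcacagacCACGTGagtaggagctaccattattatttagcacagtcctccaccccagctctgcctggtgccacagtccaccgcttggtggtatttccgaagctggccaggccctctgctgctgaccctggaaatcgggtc
The genes reached the same side of the comparison in different ways: BHLHE40 and BCOR fell in both lines and further in MOLT-4, whereas GADD45B and TNFAIP3 rose in DND-41 and were not called in MOLT-4.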

How the data were processed

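RNA was sequenced from 8 libraries, in 4 groups of 2 (DND-41 or MOLT-4, ACBI-1 or DMSO), assigned from their titles in the labels. For each line the authors deposited raw read counts of 63677 genes, and a second table of log2 fold changes, standard errors, p-values and adjusted p-values, per the file headers. The names hg19, STAR 2.5.2a, DESeq2 1.12.4 and featureCounts appear per the submitters' processing notes. How strand was counted, and with which annotation, is not given in the sources used here. Overlapping, antisense or near-identical genes may therefore share reads.

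The deposited counts of both lines were joined by identifier and fitted together in R 4.3.3 with edgeR 4.0.16 and limma 3.58.1, using trimmed mean of M-values (TMM) scaling, filterByExpr and the quasi-likelihood F-test. The model held 4 group means, and the interaction and each line's response were contrasts of it. Adjustment (Benjamini-Hochberg) ran over all 15604 genes tested, and calls were made at 5%. Intervals are 95%, and CPM values are TMM-scaled. Replicates differed by more than sampling noise in each group (chi-square per gene 15.6 in DND-41 ACBI-1 and 2.99 to 5.10 in the others). This does not show whether they were separate cultures. Each of the 8 libraries was entered separately. A count of 0 allows up to 3 reads, counting error only. Calling was tried on simulated data with 100 genes changed 1.5-fold and 100 changed 2-fold. It recovered 87% and 100% of them, with 9 false calls among 196. Smaller folds, such as those of GATA3 and BCOR, were not simulated. An exact permutation test cannot pass the threshold with 2 libraries per group and was not used.

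Named genes were the 12 largest differences in each direction among called genes with at least 5 CPM in each line and separate responses, up to 8 opposite, restricted or alike genes, up to 4 per list by smallest p, and a set of regulators. Genes chosen after their values were seen are said to be so. Some genes that the rules chose or that passed the threshold are not reported here. The members and lists were chosen with earlier results of these data known. Alternatives were DESeq2 1.42.0, limma-voom, other scaling and filters, a threshold of 1%, a minimum fold of 1.5, the replicate number as a block, the removal of genes far higher in 1 line, the subtraction from DND-41 DMSO replicate 2 of a share of the MOLT-4 level estimated from restricted genes, and leaving out each library. Removal of a smooth trend with the GC content of transcripts (GENCODE release 29) was chosen after seeing the data.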

Additional observations from a re-analysis of the deposited data

Results flagged for a closer look

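The results in this part were raised because the test of the difference between the lines passed the threshold, by edgeR, in 100 genes. They are grouped here by how many of the 8 fits that left out a library kept the call.

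Of the 100 genes, 28 were called in all 8 of those fits, 7 in all but 1 and 65 in 6 or fewer, and DESeq2 also called 86 and limma-voom 61. Among the genes kept in all 8 with the lower response in MOLT-4 were PLK2 (-3.58), SEMA7A (-2.00), PTGDR2 (-1.501) and KLF10 (-1.21). ID3 (-1.04), REL (-0.94), DTX1 (-0.90) and NOTCH1 (-0.85) were also kept in all 8, as were BTG1 (-0.63) and GIMAP5 (-0.62). Among those with the higher response were CCR4 (6.53), STAT5A (1.66), FOXB1 (1.27) and FAM46C (1.10), followed by CD84 (0.90), DENND2D (0.82) and CCM2 (0.80). The CCR4 value depends on counts of 0 in the treated DND-41 libraries and is no bound. STAT5A was at 1.25 without DND-41 DMSO replicate 2.

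DDIT4 (-0.86) and BHLHE40 (-0.76) lost the call without MOLT-4 ACBI-1 replicate 1 and in no other fit that left out a library. Calls kept in 6 of the 8 included those of ZNF696 (-0.85), LTB (-0.79), PIM1 (-0.58) and TNFAIP3 (-0.53) on the negative side. BCOR (-0.45) and SATB1 (-0.44) were kept as often. On the positive side RSAD2 (1.01), ARID3A (0.65), TGFBR2 (0.64), ORAI2 (0.63) and MSMO1 (0.58) were kept in 6. S1PR1 (1.07) and NMT2 (0.70) were kept in 5, and SKIL (-1.03) and RUNX2 (-0.63) in 4.

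Other genes named in the report had calls that were kept in 3 or fewer. They were IFFO2 (-0.90), MTF2 (-0.48), GADD45B (-0.70), IGF1R (-0.42) and GATA3 (-0.40) with the lower response in MOLT-4. With the higher response they were RHOU (0.97), ZFYVE21 (0.72), SESN2 (0.60) and HERPUD1 (0.55), and the genes whose DND-41 counts lay mostly in DMSO replicate 2, ITM2A (3.94), TRBV20-1 (3.92) and ALDH1A2 (3.33). DESeq2 did not call IFFO2, ZFYVE21, RHOU, HERPUD1 or these last 3.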

How the results depend on the processing

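The count of called interactions was 100. It was 92 with DESeq2, 63 with limma-voom, 110 with DESeq2 size factors, 103 with scaling by total counts, 102 with at least 1 CPM in each line, 90 without genes 10 times higher in 1 line and 103 after the estimated share of the MOLT-4 level was subtracted from DND-41 DMSO replicate 2. It was 13 with no filter on low counts, 50 at a threshold of 1%, 6 with a minimum fold of 1.5 and 152 with the GC trend removed (47 higher and 105 lower in MOLT-4). Leaving out each library gave 49 to 138. Without DND-41 DMSO replicate 1 the share with the lower response in MOLT-4 was 46.5%, against 69% with all libraries. For changes in DND-41, 1378 in all, the count was 940 with DESeq2, 604 with no filter, 758 at 1%, 31 with the minimum fold and 692 to 1325 when each library was left out. The share of falls was 68.2%, and 59.4% with scaling by total counts and 51% with the GC trend removed (1613 called). For MOLT-4, 1397 in all, the count was 940 with DESeq2, 711 with no filter, 794 at 1%, 64 with the minimum fold and 712 to 1672 when each library was left out. The share of falls was 61.3%, and 49.6% with the GC trend removed (1811 called). With the replicate block within each line the counts were 302 for the interaction (126 and 176), 2186 for DND-41 and 2168 for MOLT-4, and all 100 interactions remained called; CXCR4 (0.27) was called in addition. Same-numbered libraries of a line deviated together only weakly (r of 0.144 in DND-41 and 0.155 in MOLT-4, and -0.233 and -0.115 between lines), and no label says that a number marks a shared culture, so the numbers were not used as pairs. TRBV20-1 reversed, to -0.15 without DND-41 DMSO replicate 2 and to -1.08 after subtraction, and ranged up to 4.88 without DND-41 DMSO replicate 1. The cause of these shifts was not tested beyond the smaller number of libraries or genes that an alternative left. Depth limits genes near 1 CPM, such as PLK2, and genes nearly absent from 1 line, such as CCR4 and PDCD1.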

Other observations

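Protein-coding genes made up 93.5% of the genes with the higher response in MOLT-4 and 94.2% of those with the lower, against 78.3% of all genes tested. Their median transcript GC content was 52.2% and 56.1%, against 50%, over the 31, 65 and 15133 genes with a value. All 100 calls were kept when a smooth trend with GC content was removed from each library. The background of these comparisons was not matched for level. Of the called genes, 81 had at least 5 CPM in each line, against 9309 of the 15604 tested. The part of level in the shares of protein-coding genes was not tested.

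The sign of the fold changes runs in opposite directions in the 2 tables that the submitters deposited. HES1 stands at -1.54 in the authors' deposited table for DND-41 and at 1.72 in the authors' deposited table for MOLT-4, although its counts fell in both lines. Over 9309 genes with at least 5 CPM in each line, the difference taken from the authors' deposited tables as they stand had a correlation of -0.034 with the interaction from the counts, and of 1 once the sign of the MOLT-4 table was turned.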
